A study of Mus musculus with 4 samples.

Results

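Fatty acid oxidation enzymes take fatty acids into mitochondria and peroxisomes and cut them into acetyl-CoA, and their genes were examined here in Purkinje cells, the inhibitory output neurons of the cerebellar cortex. The genes were grouped by name: 32 symbols of mitochondrial and peroxisomal beta-oxidation were listed, and 30 of them had a probe set whose annotation gave that symbol alone, out of 18193 genes named in this way on the array. Acsl1 and Cpt1b were not matched to such a probe set and were not analysed here. The 30 genes had 55 probe sets, and 17 genes had more than 1. A gene's level was read from its probe set with the highest mean over the 4 arrays, called its main probe set, so these levels chose the probe set and are given as a description.

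In this pathway an acyl-CoA synthetase first joins a fatty acid to coenzyme A, and the carnitine shuttle then carries long chains across the inner mitochondrial membrane. Each turn of the spiral has a dehydrogenation, a hydration, a second dehydrogenation and a thiolytic cleavage, and it passes electrons to the respiratory chain through electron transfer flavoprotein. Peroxisomes shorten very long and branched chains with enzymes of their own. The adult brain runs chiefly on glucose, and within it fatty acid oxidation is known mainly from astrocytes.

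All 4 samples were Purkinje cells cut by laser capture from frozen cerebellar sections of intact, untreated C57BL/6J males aged 8 weeks, 2 samples from each of 2 animals, named 1-1, 1-2, 2-1 and 2-2 after animal and sample. RNA was amplified in 2 cycles and hybridized to Affymetrix arrays. There was 1 group and no treatment, so genes were set against background and animal 2 against animal 1. The labels do not say whether the samples of an animal were separate captures, and p-values therefore measure the spread between these samples, which may be technical.

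The deposited arrays differed in brightness, with 2% trimmed mean signals from 55.8 (sample 1-1) to 87.6 (sample 2-2), and levels below are quantile-normalized log2 signals unless the sentence says otherwise. Background was set by 85 genes typical of other organs: their 95th percentile on an array, called the bound, lay between 5.64 and 5.96. Levels of 1 gene are not set against those of another, because probe sets respond unequally to equal RNA. In captured tissue, fewer cells of a type and less RNA per cell cannot be told apart.

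Markers bore out the label Purkinje cells, and genes of neighbouring cells were present too. Of 19 Purkinje cell markers 18 lay above the bound on all 4 arrays, with Calb1 (13.68) and Pcp4 (13.58) the brightest and the scaffold gene Shank1 below it on every array. Markers of Bergmann glia and astrocytes passed in 16 of 20 cases, among them Gja1 (11.72) and Hopx (11.58). Granule cell markers passed in 6 of 18 cases, including Zic1 (10.52) and Chgb (10.16), while 7 failed on every array, Slc17a7 and Pax6 among them. Oligodendrocyte markers passed in 4 of 14 cases (Cnp at 11.38, Mbp at 10.18), interneuron markers in 2 of 10 (Lgi2, Prkcd), blood vessel markers in 2 of 13 (Slc2a1, Rgs5), microglia markers in 1 of 13 (Csf1r), choroid plexus and meninges markers in 1 of 11 (Clic6) and red blood cell markers in 0 of 2. Over all named genes 28.1% passed on all 4 arrays. The granule cell (33.3%) and oligodendrocyte (28.6%) shares were near that value, and those of the lists named after them were below it. No marker stood at the signal floor on all 4 arrays.

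Of the 30 fatty acid oxidation genes, 18 (60.0%) passed the bound in each of the 4 samples, 6 passed in some samples and 6 in no sample. Over all named genes the share above the bound on all 4 arrays was 28.1%. Between 19 genes (sample 1-1) and 22 genes (samples 2-1 and 2-2) passed on a single array. The dehydrogenation, second oxidation and cleavage steps of the mitochondrial spiral each had a gene above the bound on all 4 arrays, whereas the hydratase genes Echs1 and Hadha passed on 2 arrays and 1 array. The 6 genes that failed throughout were Acsl5, Cpt1a, Cpt2, Acads, Acox3 and Ehhadh. With the bound at the 99th percentile of the background genes the count was 11, against 20% of all named genes.

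**Figure D1:**
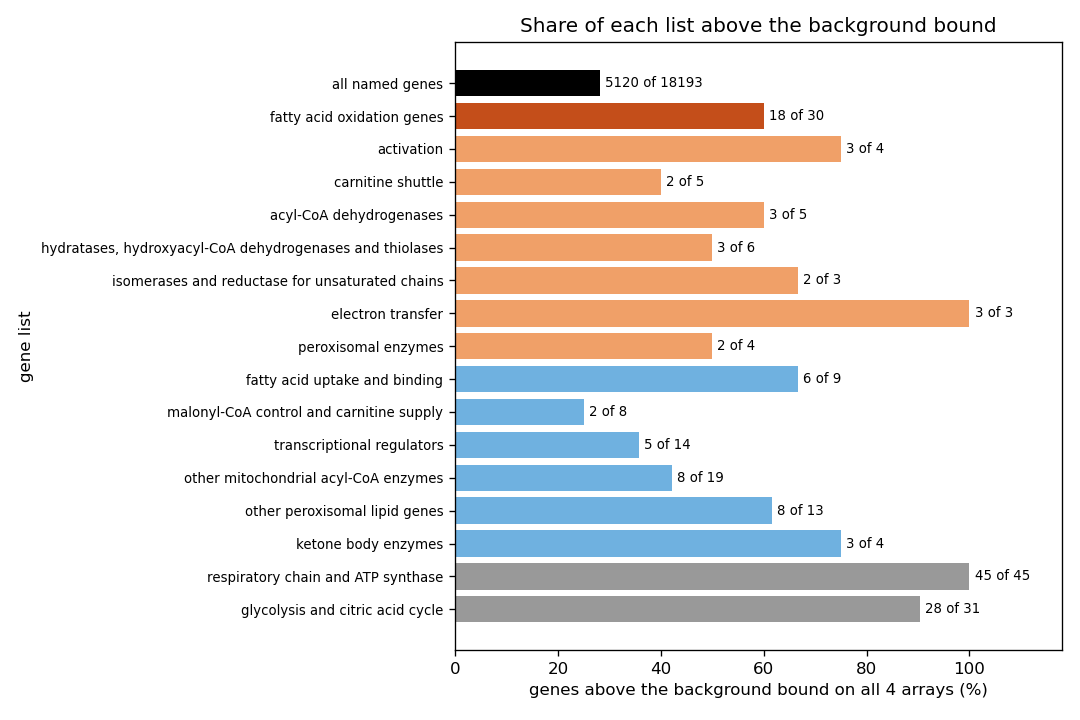
Share of the genes of each list above the background bound on all 4 arrays, in percent, with counts beside the bars; orange bars are roles within the pathway, blue bars related genes and grey bars other energy pathways. The 30 fatty acid oxidation genes reached 60.0%, against 28.1% of all named genes and 45 of 45 genes of the respiratory chain.

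Genes of the other energy pathways were read in the same way. All 45 measured genes of the respiratory chain and ATP synthase were above the bound on every array, as were 28 of 31 genes of glycolysis and the citric acid cycle. The exceptions among the latter were Hk2, Suclg2 and Idh2. These counts are set side by side as descriptions, and their difference was not tested.

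**Figure D2:**
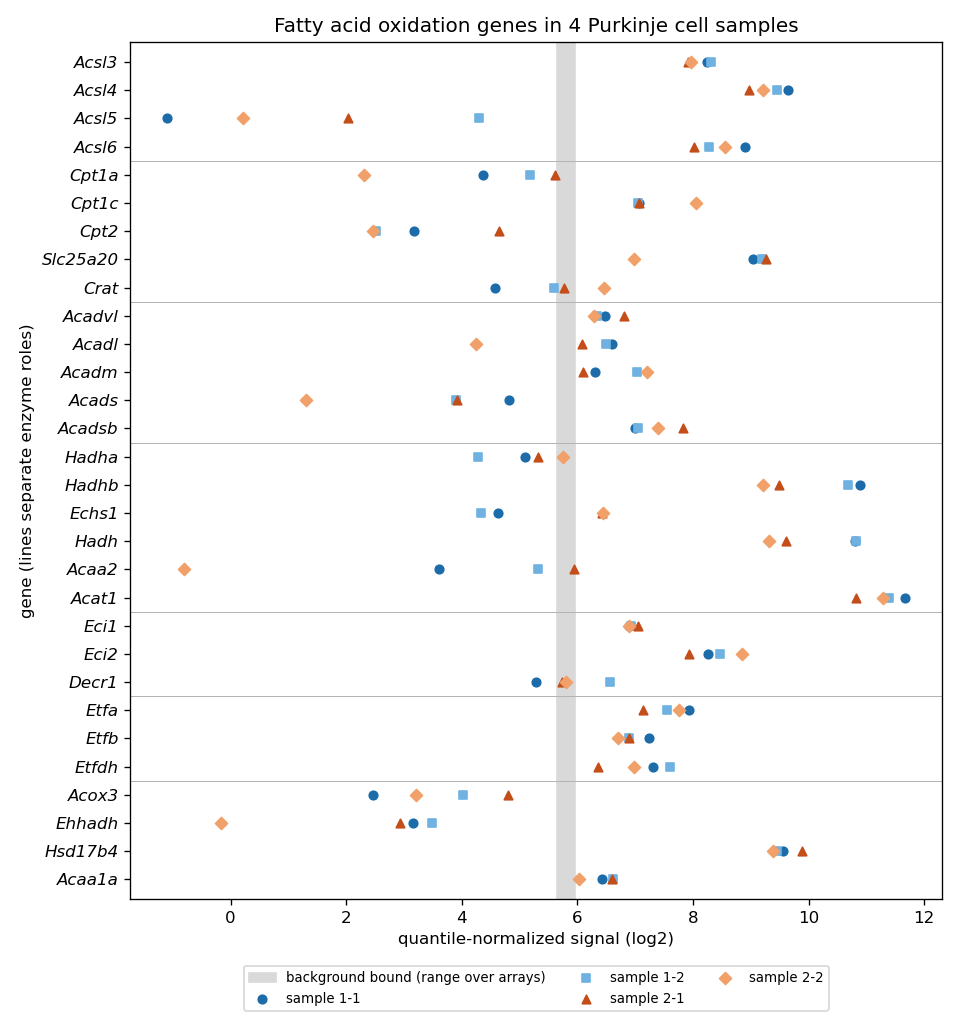
Quantile-normalized log2 signal of the main probe set of each of the 30 genes in the 4 samples, with horizontal lines between enzyme roles and a grey band for the bound of the arrays (5.64 to 5.96). Samples of animal 2 (orange) lie left of those of animal 1 (blue) for Hadhb and Hadh and right of them for Echs1, and Acsl5, Acads and Ehhadh lie left of the band in every sample.

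Activation of fatty acids was represented by 3 synthetase genes above the bound on all arrays. Acsl4, which prefers arachidonic acid, stood at 9.65, 9.45, 8.98 and 9.22 in samples 1-1, 1-2, 2-1 and 2-2, a mean of 9.32 ± 0.32 (SD, n = 2 animals). The other probe sets of Acsl4, with means of 4.19 and 0.33, were below the bound on every array. Acsl6, a synthetase of the brain that favours docosahexaenoic acid, stood at 8.91, 8.28, 8.03 and 8.56, a mean of 8.45 ± 0.21. On the main probe set of Acsl4 both samples of animal 2 were below both of animal 1, while in Acsl6 the animals overlapped. Acsl3, a synthetase of lipid droplets and the endoplasmic reticulum, stood at 8.11 ± 0.24. Acsl5 stood at -1.10, 4.31, 2.03 and 0.22, under the bound in all samples and far apart between the samples of animal 1. These synthetases also feed lipid synthesis, so their names do not place them in oxidation alone.

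The carnitine shuttle was split between genes well above and genes below the bound. Slc25a20, the carrier that exchanges acylcarnitine for carnitine, stood at 9.04, 9.20, 9.27 and 6.99. Sample 2-2 alone was low, and the other 3 samples lay within a narrow range. Its second probe set was above the bound on 1 array, at 5.23, 4.75, 6.23 and 4.44. Cpt1c, the neuronal carnitine palmitoyltransferase of the endoplasmic reticulum, which has little catalytic activity, stood at 7.07, 7.05, 7.07 and 8.05, with sample 2-2 high and the others nearly equal.

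Cpt1a, the outer membrane enzyme that limits entry of long chains in liver and astrocytes, was below the bound on all 4 arrays with each of its 3 probe sets. On the main probe set it stood at 4.36, 5.19, 5.62 and 2.31, and its other probe sets had means of 4.14 and 3.78. Cpt2, the transferase of the inner membrane, was likewise below the bound, at 3.18, 2.52, 4.65 and 2.46. A second Cpt2 probe set read 4.81 and 4.52 in animal 1 and 0.67 and 0.80 in animal 2, also below the bound throughout. Crat, which handles short acyl groups, stood at 4.58, 5.60, 5.76 and 6.45 and passed in both samples of animal 2 only, barely so in sample 2-1. Its other probe sets, with means of 3.57 and 2.82, were below the bound on every array. Their animal means went the other way, lower in animal 2 by differences of -1.71 and -2.01.

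Acyl-CoA dehydrogenases take the first oxidation step and differ by chain length. Acadsb, which acts on short branched chains from isoleucine, stood at 7.00, 7.04, 7.83 and 7.40, with both samples of animal 2 above both of animal 1. Acadm, for medium chains, stood at 6.30, 7.03, 6.10 and 7.20, so that the samples of each animal lay apart and the animals overlapped. Acadvl, for very long chains, stood at 6.48, 6.34, 6.81 and 6.28, with the samples of animal 2 on either side of those of animal 1. Acadl, for long chains, stood at 6.60, 6.50, 6.08 and 4.24 and fell below the bound in sample 2-2 alone. A second Acadl probe set was below the bound on every array, with a mean of 1.20. Acads, for short chains, was below the bound on every array, at 4.82, 3.91, 3.92 and 1.30.

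The hydration, second oxidation and cleavage steps held the widest contrasts. Hadha and Hadhb encode the alpha and beta subunits of the mitochondrial trifunctional protein, which works on long chains. Hadhb stood at 10.89, 10.68, 9.49 and 9.20, far above the bound, with the samples of animal 2 below those of animal 1. Hadha, on its only probe set, stood at 5.10, 4.28, 5.32 and 5.75 and passed the bound in sample 2-2 alone. Being under the bound in the other 3 samples, it allows no comparison of the animals with Hadhb. Hadh, the dehydrogenase for medium and short chains, stood at 10.81, 10.83, 9.62 and 9.32, the same order of animals as Hadhb.

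Echs1, the short-chain hydratase, stood at 4.62, 4.34, 6.42 and 6.45, below the bound in both samples of animal 1 and above it in both of animal 2. Acat1, the mitochondrial acetoacetyl-CoA thiolase, which also serves ketone bodies and isoleucine, stood at 11.67, 11.39, 10.81 and 11.28. Its animals did not overlap, though the gap between samples 1-2 and 2-2 was small. Acaa2, the thiolase for medium and long chains, had the widest range of the 30 genes, at 3.61, 5.31, 5.94 and -0.81, and it passed the bound in sample 2-1 only.

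Auxiliary enzymes deal with double bonds in unsaturated chains. The isomerase genes Eci2 and Eci1 were above the bound throughout, Eci2 at 8.25, 8.47, 7.94 and 8.84 and Eci1 at 6.90, 6.93, 7.05 and 6.89. Eci1 hardly moved between samples or animals. Decr1, the dienoyl-CoA reductase, stood at 5.28, 6.56, 5.73 and 5.80 and passed in 1 sample of each animal. A second Decr1 probe set was below the bound on every array, with a mean of 3.23.

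Electron transfer was the 1 role in which every gene passed on all arrays. Etfa and Etfb, the subunits of electron transfer flavoprotein, stood at 7.60 ± 0.21 and 6.94 ± 0.19 (SD, n = 2 animals), with samples of both animals intermixed. By sample, Etfa read 7.94, 7.56, 7.14 and 7.76 and Etfb 7.25, 6.90, 6.90 and 6.70. Etfdh, the oxidoreductase that hands these electrons to ubiquinone, stood at 7.30, 7.60, 6.37 and 6.99, lower in both samples of animal 2. A second Etfdh probe set was below the bound on every array, with a mean of 1.53.

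Peroxisomal enzymes were divided. Hsd17b4, the D-bifunctional protein that hydrates and oxidizes very long and branched chains, stood at 9.55, 9.46, 9.88 and 9.39. Acaa1a, the peroxisomal thiolase, stood at 6.43, 6.61, 6.61 and 6.02, above the bound in each sample, while its other probe set passed in 1. In contrast Ehhadh, the L-bifunctional protein induced by peroxisome proliferators in liver, was below the bound in every sample, at 3.16, 3.49, 2.94 and -0.16. Acox3, an oxidase for branched chains, was also below it, at 2.47, 4.02, 4.80 and 3.20.

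Related genes outside the 32 were taken from lists in which the members' own symbols do not occur. Fatty acid binding and uptake genes passed the bound on all arrays in 6 of 9 cases, led by the binding protein genes Fabp5 (12.24 ± 0.28, SD, n = 2 animals) and Dbi (11.36 ± 0.39), while the scavenger receptor gene Cd36 (1.70 ± 1.09) was below it. Ketone body genes passed in 3 of 4 cases: Oxct1, which activates acetoacetate for use, stood at 11.11 ± 0.23 and Bdh1 at 7.91 ± 0.13, while the transporter gene Slc16a7 (2.52 ± 0.06) did not pass. Other peroxisomal lipid genes passed in 8 of 13 cases, led by Scp2 (11.09 ± 0.12), a thiolase and lipid carrier, and the fatty acid transporter Abcd3 (10.49 ± 0.09), with the oxidase gene Acox2 (1.04 ± 0.68) below.

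Other mitochondrial acyl-CoA enzymes passed in 8 of 19 cases, led by the thioesterase gene Acot13 (9.33 ± 0.44, SD, n = 2 animals) and the hydratase gene Auh (9.26 ± 0.15), with Acsf2 (1.14 ± 0.64) below. Control of malonyl-CoA, the inhibitor of carnitine palmitoyltransferase, and supply of carnitine passed in 2 of 8 cases, Fasn (7.34 ± 0.10) and Acaca (7.04 ± 0.19), while Acacb (1.73 ± 1.18) was below on every array. Transcriptional regulators of the pathway passed in 5 of 14 cases. The coactivator gene Ppargc1a stood at 9.17 ± 0.14 and Rxrb at 7.96 ± 0.33, and Pparg (0.74 ± 1.33) was below the bound on every array. None of these 6 lists had a gene called between the animals by limma (0 of 45 tested genes), where 5 passed an unadjusted p of 0.05: Fabp5, Dbi, Mmut, Acot2 and Cat, all lower in animal 2. Over all named genes tested 9.79% were lower by that threshold, and 0.317% of all probe sets were called in either direction.

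Animal 2 was then set against animal 1 with limma over 11026 probe sets that lay above the bound on at least 2 arrays. The main probe sets of 22 of the 30 genes entered this fit. The other 8 (Acsl5, Cpt1a, Cpt2, Acads, Hadha, Acaa2, Acox3 and Ehhadh) were too dim. Echs1 and Crat entered only because animal 2 was bright, and so had to differ in that direction.

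Hadh and Hadhb were lower in animal 2, and none of the 22 tested genes was called higher. Hadhb fell by 1.44 ± 0.18 on the log2 scale (SE, limma, adjusted p = 0.048, 2 samples per animal) and Hadh by 1.35 ± 0.17 (limma, adjusted p = 0.048), 2.71-fold and 2.55-fold. Deposited signals gave the same order of animals: Hadhb read 1599, 1399, 767 and 772 and Hadh 1519, 1562, 841 and 832, although most of the array was brighter in animal 2. An earlier look at these data had already placed both genes near this threshold, so the result is no independent support. Over all probe sets tested, 0.0998% were called lower and 0.218% higher in animal 2. On values as deposited 598 probe sets were called higher and 9 lower, and Hadhb and Hadh stood at -0.96 ± 0.20 and -0.88 ± 0.19 (limma, adjusted p = 0.0422 and 0.044).

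These calls are close to the threshold and depend on the design of the fit. They were lost without the mean-variance trend (limma, adjusted p = 0.227 for both), with no filter on dim probe sets (0.123 for both), with a filter at the 90th percentile of the background genes (0.068 for both), without sample 1-1 (0.378 for Hadhb, 0.344 for Hadh) and without sample 1-2 (0.36 and 0.431). The direction was the same in every one of these fits.

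The other probe sets of both genes were checked next. On its second probe set Hadhb stood at 7.17, 7.44, 5.98 and 6.14, a difference of -1.25 ± 0.39 (limma, adjusted p = 0.191). On its second probe set Hadh stood at 7.19, 6.84, 5.84 and 6.33, a difference of -0.93 ± 0.43 (limma, adjusted p = 0.325). Neither was called, and in both the 2 samples of animal 2 lay below those of animal 1. The remaining, dim probe set of each gene stayed under the bound, lower in animal 2 for Hadhb (-2.18) and higher for Hadh (0.84). The main probe sets end in _x_at, a suffix of the array maker for probes that can also bind other transcripts.

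**Figure D3:**
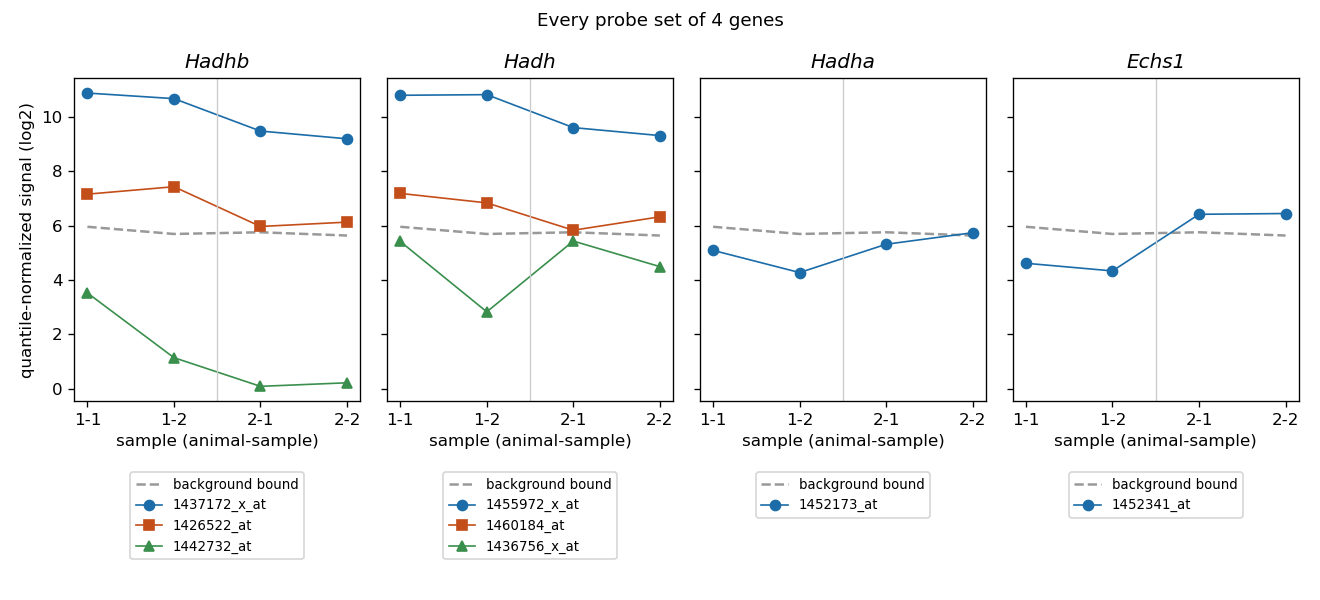
Quantile-normalized log2 signal of every probe set of Hadhb, Hadh, Hadha and Echs1 in samples 1-1 to 2-2, with the background bound of each array as a dashed line; the vertical line separates the animals. The brightest 2 probe sets of Hadhb and of Hadh are lower in animal 2, while the single probe sets of Hadha and Echs1 lie under the bound in 3 and 2 samples.

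The start regions of these genes are shown because Hadh and Hadhb were the called genes, and Hadhb lies beside its partner gene Hadha. The sequences are those of RefSeq on the assembly GRCm38.p6, 250 bases before the annotated start, 5′ to 3′ on the strand of the gene, with matches to the motifs searched in capitals (CCGCCC is the GC box on the other strand). Hadhb lies on the plus strand (chr5:30155003-30155252) and Hadh on the minus strand (chr3:131272102-131272351).
Hadhb: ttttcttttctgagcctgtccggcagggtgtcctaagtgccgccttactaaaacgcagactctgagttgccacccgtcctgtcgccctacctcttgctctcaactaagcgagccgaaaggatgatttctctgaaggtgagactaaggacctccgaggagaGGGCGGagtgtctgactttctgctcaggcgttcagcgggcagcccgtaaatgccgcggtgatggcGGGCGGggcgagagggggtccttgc
Hadh: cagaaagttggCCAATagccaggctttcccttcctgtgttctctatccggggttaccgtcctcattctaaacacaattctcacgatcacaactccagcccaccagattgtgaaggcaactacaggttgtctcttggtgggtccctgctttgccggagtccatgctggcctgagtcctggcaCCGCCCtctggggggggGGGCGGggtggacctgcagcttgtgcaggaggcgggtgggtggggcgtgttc
Hadha and Hadhb are transcribed away from each other, with 272 bases between their annotated starts. All 250 bases shown for Hadhb lie between these starts and so are also upstream of Hadha on the other strand. Of them, 228 fall within the 250 bases before the Hadha start. Hadha itself was too dim for its animals to be compared.

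Motifs were searched on both strands in the 250 bases upstream of 26 of the 32 genes, those with an entry, and in 32851 such stretches in all. The GC box (GGGCGG) was found at 2 places each upstream of Hadhb and of Hadh, in 20 of the 26 genes and in 32.7% of all stretches. A CCAAT box (CCAAT) stood upstream of Hadh, in 13 of 26 genes and in 33.8% of all stretches, and not upstream of Hadhb. The nuclear receptor half-site (AGGTCA) occurred for 6 genes (Acadm, Acadvl, Acsl6, Cpt1a, Cpt1c and Echs1) and in 14.0% of all stretches. Its extended form bound by estrogen-related receptors (AAGGTCA), which contains the half-site, occurred for Acadm and Acsl6 and in 4.08% of stretches. The ETS core (CCGGAA) was found for Acox3, Cpt2, Etfdh and Slc25a20 and in 12.0% of stretches. No gene of the 26 had the TATA box (TATAAA, 12.4% of stretches) or the direct repeat of half-sites AGGTCANAGGTCA (0.0335%). A gene with several annotated starts counts once if any start has the motif, whereas the percentages count every stretch, so the 2 measures are unlike. G and C made up 58.8% of the Hadhb stretch and 59.6% of the Hadh stretch, against a median of 52.4% over all stretches. Whether any motif is more frequent in these genes was not tested.

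Echs1 was not called (limma, adjusted p = 0.215), and its fitted difference of 1.96 ± 0.67 (SE) is taken against samples of animal 1 that lay under the bound, so it gives no measured size. Of genes not called and above the bound in every sample, Acat1 had the smallest p and differed by -0.48 ± 0.18 (limma, adjusted p = 0.24), while its other probe sets differed by -0.07 ± 0.27 and -0.09 ± 0.37. Next by p among all tested genes were Acsl4 (-0.45 ± 0.21), Etfdh (-0.78 ± 0.39), Acadl (-1.39 ± 0.74) and Acadsb (0.59 ± 0.34). Their limma adjusted p-values were 0.328 to 0.424. Acadl lay under the bound in sample 2-2, so its difference has no firm size: it was -0.47 without sample 2-2 and -2.26 without sample 2-1. Probe sets of Acsl3 disagreed, with -0.34 ± 0.27 on the main one, -0.66 ± 0.39 on the next brightest and 1.01 ± 0.54 on the dimmest, none called. Hsd17b4 stood at 0.13 ± 0.23 and, on its second probe set, at 0.26 ± 0.66. At an unadjusted p under 0.05 there were 3 lower (Hadh, Hadhb and Acat1) of 22, where 9.79% of all named genes tested were. The 1 gene higher, where 7.52% of all were, was Echs1, whose direction the filter had fixed.

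**Figure D4:**
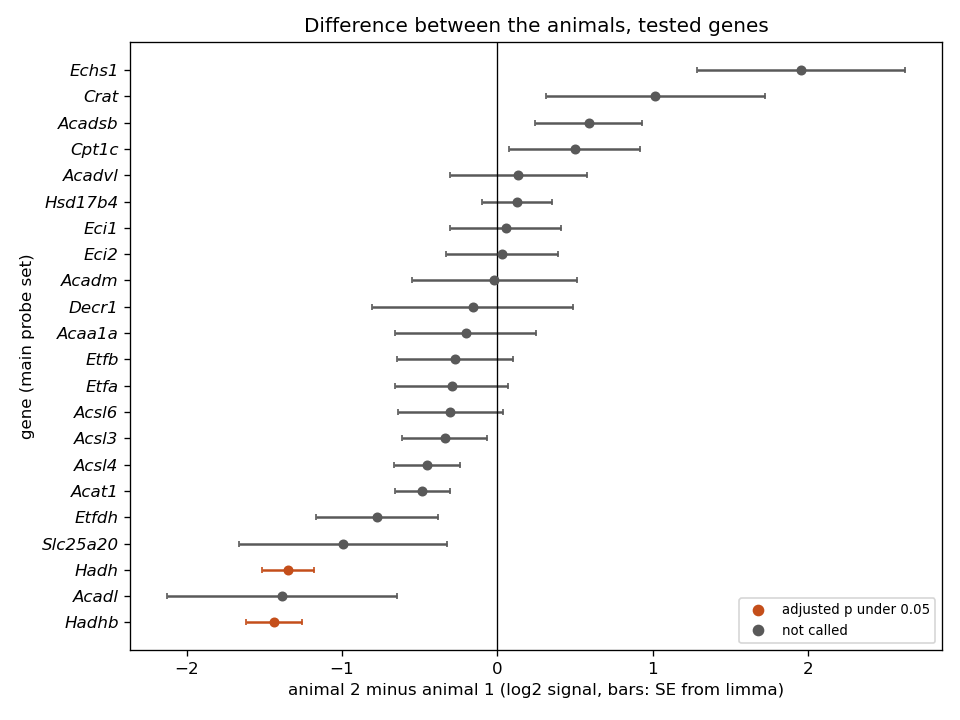
Difference of animal 2 minus animal 1 on the log2 scale for the main probe sets of the 22 tested genes, with SE from limma (2 samples per animal). Hadhb and Hadh, in orange, are the called genes at -1.44 and -1.35, and Echs1, at 1.96 without a call, entered the fit through animal 2 alone.

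Both samples of animal 2 lay below both of animal 1 for 7 of the 22 tested genes (Acsl3, Acsl4, Acadl, Hadhb, Hadh, Acat1 and Etfdh), against 26.1% of all named genes tested. They lay above for 3 (Crat, Acadsb and Echs1), against 22.5% of all named genes tested. Of these 3, Crat and Echs1 had entered through animal 2 alone, and with a filter on all 4 arrays the count was 1. On values as deposited, where the median over all named genes tested was itself 0.46, the counts were 2 below (Hadhb and Hadh) and 9 above. The matching shares of all named genes are not given on that scale, so these 2 counts have no background. The median difference of the 22 genes was -0.24, against -0.06 over all named genes tested, and as deposited it was 0.35. It was -0.18 without Hadh and Hadhb. With the median over each gene's probe sets only 18 genes were tested. Their median difference was 0.000924, against 0.00038 over all named genes tested in that way.

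Sums over markers of other cells moved between the animals in the same samples. The summed linear signal of the 30 genes was 10740 to 11611 in animal 1 and 7718 to 7817 in animal 2, and that of the 28 genes other than Hadh and Hadhb 7277 to 7928 and 6215 to 6587. Bright genes weigh most in a linear sum, so the sum of the 28 is no measure of a shared shift. Their brightest was Acat1, at 11.67, 11.39, 10.81 and 11.28 on its main probe set, while its other probe sets differed by -0.07 and -0.09. Purkinje cell markers summed to 86751 to 87535 in animal 1 and 96528 to 97307 in animal 2. Granule cell markers went from 5739 to 7076 in animal 1 to between 3200 and 3720 in animal 2, and Bergmann glia and astrocyte markers from 18075 to 18260 to between 14426 and 15848. Oligodendrocyte markers summed to 5250 to 5460 and 3542 to 4727, microglia markers to 288 to 406 and 176 to 191, and blood vessel markers to 822 to 845 and 497 to 549. Interneuron markers (535 to 638, then 520 to 546) and markers of choroid plexus and meninges (630 to 635, then 541 to 568) moved less, and red blood cell markers stood between 1.34 and 13.2 in all samples. Limma called 0 of 41 tested markers of these other cells between the animals, while 2 were higher and 16 lower by the unadjusted threshold of 0.05, against 7.52% and 9.79% of all named genes tested. By that threshold 7 of 18 tested Purkinje cell markers were higher and 1 lower, and limma called Pcp2 (0.57 ± 0.07, adjusted p = 0.0423) and Icmt (1.30 ± 0.14, adjusted p = 0.0375), both higher in animal 2. The part of cell content in the differences of Hadh, Hadhb and the other genes was not tested.

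The spread between samples of 1 animal was larger in animal 2. Over the 22 tested genes the median absolute difference between samples 1-1 and 1-2 was 0.20 and between 2-1 and 2-2 it was 0.51, where all named genes tested had 0.26 and 0.46. Sample 2-2 held the lowest value of the 4 for 14 of the 30 genes, sample 2-1 for 8, sample 1-1 for 5 and sample 1-2 for 3. These counts include genes below the bound on every array. The matching shares of all named genes are not given, so the counts have no background. Among genes above the bound on all arrays, Slc25a20 differed most within an animal (2.28 between samples 2-1 and 2-2), followed by Acadm (1.10), Cpt1c (0.99) and Eci2 (0.90).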

How the data were processed

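The 4 samples of 1 group were each hybridized to an Affymetrix array. The deposited values are linear intensity signals per probe set, made by the authors and, per the submitters' processing notes, computed in GCOS. The sources used here do not name its algorithm, version or scaling. Scanner files were not used, so scan batches were not tested. Of 45101 probe sets, 64 controls were left out, 34945 had 1 gene symbol in the platform annotation, 932 several and 9160 none. Symbols of list genes were checked through gene identifiers against RefSeq, and 0 differed.

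Signals under 0.1 were set to 0.1, log2 was taken and arrays were quantile-normalized in limma 3.58.1 (R 4.3.3), because trimmed means differed by 46.6% of their average. Animals were compared with lmFit and eBayes with a trend, 2 residual degrees of freedom and Benjamini-Hochberg adjustment over all probe sets tested, at a false discovery rate of 0.05. An exact permutation of 2 against 2 cannot go below 0.333. Levels are means ± SD over 2 animals. The fit was tested on simulated data.

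The genes and lists were chosen with earlier results of these data known. Genes given by sample were the brightest 2 of each role, those below the bound throughout, the 8 with the smallest p and those whose probe sets disagreed, with a few others named after their values were seen. Of related lists, the brightest 2 genes, the dimmest and any called were named. Alternatives were other bounds, scalings, filters, an offset of 16, other probe set choices, a fit without trend and leaving out each sample.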

Additional observations from a re-analysis of the deposited data

Results flagged for a closer look

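The level of 3 of the 30 genes had 1 sample far from the other 3, by Dixon's ratio of the gap to the range, and each time it was sample 2-2. Slc25a20 was low there (6.99 against 9.04 to 9.27), Cpt1c was high (8.05 against 7.05 to 7.07), and Ehhadh was low (-0.16 against 2.94 to 3.49, all below the background bound). Chance flags about 1 in 20 groups, and the 4 samples are 2 from each of 2 animals rather than 4 independent ones. Without sample 2-2 the difference of Slc25a20 between the animals was 0.15 ± 0.22, and without sample 2-1 it was -2.15 ± 0.27 (limma, adjusted p = 0.0127), against -0.99 ± 0.67 with both.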

How the results depend on the processing

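The count of genes above the bound was 18 or 19 without any 1 sample and 11 with the bound at the 99th percentile. Genes called between the animals numbered 0 to 3 without any 1 sample (0 without samples 1-1 and 1-2, with 2 and 3 at an unadjusted p under 0.05), the third being Slc25a20 without sample 2-1 and Acat1 without sample 2-2 (-0.73 ± 0.14, limma, adjusted p = 0.0271). Limma called 0 of them with no filter on dim probe sets (6 at an unadjusted p under 0.05), without the trend (4) and with a filter at the 90th percentile (4), the last chosen after seeing the data, as was a filter at the 99th. Over 12 alternatives adjusted p ran from 0.00823 to 0.431 for Hadh and from 0.00858 to 0.378 for Hadhb, and 7 of 12 kept each call.

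Probe sets called higher and lower, 24 and 11, became 2 to 324 and 0 to 712 without any 1 sample (0 without sample 1-2, where 774 had an unadjusted p under 0.05), 598 higher on values as deposited, and 22 lower with an offset of 16. They were 5 and 0 with no filter (4105 at an unadjusted p under 0.05), 93 and 88 with a filter on all 4 arrays, 0 and 0 without the trend (1700 at an unadjusted p under 0.05), 5 and 2 with the filter at the 90th percentile and 73 and 61 at the 99th. When a sample is left out, the spread comes only from the other animal's pair. Genes with both samples of animal 2 higher, 3, became 3 to 5 without any 1 sample, 9 as deposited, 5 on a common trimmed mean and 1 with a filter on all 4 arrays or at the 99th percentile. Those lower, 7, became 9 to 13 without any 1 sample, and 2 as deposited or with the median over probe sets. With a sample left out, 2 samples are set against 1, a weaker condition that more genes meet. The tested genes numbered 16 to 22 over the settings given for these 2 counts. They numbered 25 with the filter at the 90th percentile and 30 with no filter. Shares of all named genes are not given for these settings, so the counts have no background. The median difference became -0.42 to -0.19 without any 1 sample, 0.35 as deposited, -0.15 on a common trimmed mean, 0.000924 with the median over probe sets and -0.30 with the filter at the 99th percentile. Differences of single genes changed sign in 20 of 247 cases, in 13 of 22 genes, none of them called before or after. The cause of these changes was not tested. Signal over background limits the 8 untested genes, and the number of arrays limits every value.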
